A study of Homo sapiens with 12 samples.

Results

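The comparison described here is between HTB56 lung cancer cells recovered from mouse lungs and the unselected cells they came from. HTB56, also known as Calu-6, is an established human line derived from an anaplastic carcinoma. The unselected cells (H0R, 0 rounds of selection) and the selected cells (H3R, 3 rounds) were each measured on 3 Affymetrix whole-transcript arrays. These 6 arrays are all the HTB56 arrays among the 12 of the series, chosen by their sample labels, and the other 6 hold another lung cancer line, A549. In each round, cells were injected into a vein of a mouse, and cells that grew as lung nodules gave the next population. The labels mark every array as untreated with 5-azacytidine, a drug that lowers DNA methylation. The labels do not say how many mice or nodules gave rise to H3R, so it is treated as a single derived population. Nothing in the labels says whether the 3 arrays of a group came from separate cultures, so p-values measure the spread between arrays within groups, which may be technical. That spread was estimated over all 12 arrays, those of A549 included.

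Neuroendocrine cells store peptides and amines in dense-core granules and release them when calcium enters the cell. Granins are the acidic proteins that pack these granules, prohormone convertases trim their cargo, and SNARE proteins with their calcium sensors fuse granule and plasma membrane. Epithelial cells in turn hold together through cadherins and desmosomes, the latter being spot-like junctions that anchor keratin filaments. Tumour cells that settle in the lung from the blood have to survive in the capillaries, cross their wall and grow in a new matrix, and the gene groups below follow these roles.

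Values are log2 RMA signals, so a difference of 1 is a change of 2-fold. A gene was called higher or lower where the limma fit gave an adjusted p below 0.05 over 16939 genes. The array medians over all probe sets were 5.55 to 5.64, and the 20th percentile of an array, below which a signal is treated as dim, was 3.44 to 3.50. Arrays of the same HTB56 group correlated at 0.991 to 0.995 and arrays of different groups at 0.984 to 0.988. The simple-epithelium keratin KRT18 and its partner KRT8 were bright in both groups. KRT18 averaged 12.7 in H0R and 12.6 in H3R, and KRT8 averaged 11.2 and 11.4. Vimentin (VIM), a mesenchymal filament protein, averaged 12 and 12.1, while E-cadherin (CDH1) was low at 4.55 and 4.50. Markers of lung alveolar cells were low in both groups: NKX2-1 averaged 4.17 and 4.14, SFTPB 5.05 and 5.13, SFTPC 5.33 and 5.47, and NAPSA 4.98 and 5.02. None of these 8 genes passed the test except KRT8 when the replicate number was fitted as a block, where limma gave an adjusted p of 0.043. Another epithelial marker, EPCAM, was called higher in H3R and is given below, and KRT7 and KRT19 are not described here.

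H3R differed from H0R in 3298 of the 16939 genes, or 19.5%. Of these, 1452 were higher (8.57%) and 1846 were lower (10.9%). When the replicate number entered the fit as a block (below, "with replicates blocked" or "with the block"), 4744 genes (28.0%) passed, 2186 higher (12.9%) and 2558 lower (15.1%), and 3295 of the 3298 were called the same way. The median change over all genes was 0.02. Counts for the gene lists below stand against the 8.57% higher and 10.9% lower of all genes. Falls outnumbered rises more among large changes: 342 genes fell at least 2-fold (2.02%) and 166 rose at least 2-fold (0.980%), and at 4-fold or more the counts were 70 and 20. At 8-fold or more, 17 genes fell and 2 rose. Of the called genes, 3263 had arrays that did not overlap between the groups, against 34.3% of all genes.

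**Figure D1:**
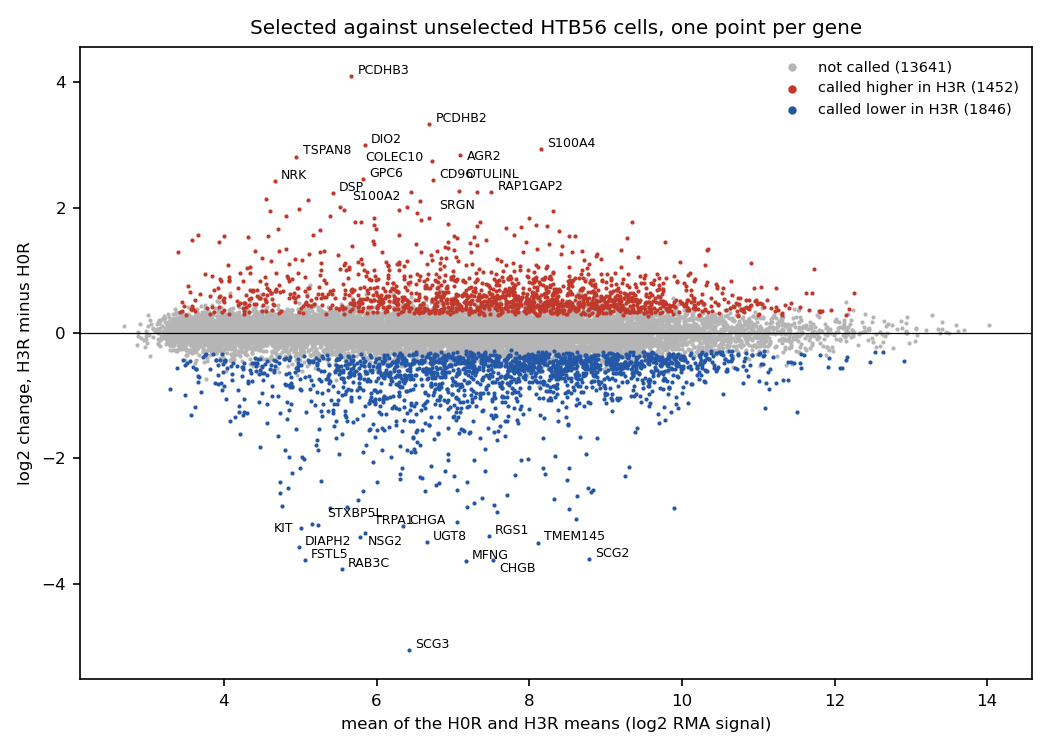
Change of each of 16939 genes (vertical axis, log2 signal, H3R minus H0R) against the mean of the 2 group means (horizontal axis, log2 RMA signal). Red points were called higher in H3R (1452) and blue points lower (1846), grey points were not called, and the 15 largest rises and falls are named, led by PCDHB3 at 4.11 and SCG3 at -5.06.

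The largest fall of a tested gene was in the dense-core granule group. SCG3, secretogranin III, which tethers granins to the granule membrane, read 9.0, 8.97 and 8.91 in H0R and 3.90, 3.94 and 3.85 in H3R. The 3 H3R arrays lay just above the dim range and far below every H0R array. The change was -5.06 (SE 0.10, a fall of 33.4-fold, limma adjusted p = 2.06e-13), the largest of any named gene. CHGB, chromogranin B, fell from 9.40, 9.13 and 9.47 to 5.71, 5.58 and 5.86, a change of -3.62 (SE 0.12, limma adjusted p = 2.84e-10). SCG2, secretogranin II, the source of secretoneurin, fell from 10.41, 10.72 and 10.64 to 7.17, 6.67 and 7.12 and so kept a mid-range signal in H3R. CHGA, chromogranin A, read 8.21, 8.25 and 7.19 in H0R and 4.71, 4.94 and 4.76 in H3R. Its H0R arrays were uneven, with replicate 3 about 1 unit below the others, and still none overlapped H3R (change -3.08, SE 0.22, limma adjusted p = 2.03e-07).

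Across the list of granins and prohormone processing, 23 of 25 genes were tested, and 9 fell and 2 rose, where 10.9% and 8.57% of all genes did. The median change of the list was -0.20, against 0.02 over all genes. The other members described here were chosen after their values were seen. VGF, a granin-like peptide precursor, fell from 10.18, 9.99 and 10.06 to 7.47, 7.60 and 7.55. PTPRN, also called IA-2, a receptor-type protein of the granule membrane, fell by 2.38 on the log2 scale, and its relative PTPRN2 fell by 0.77. CADPS, which primes granules for release, fell by 1.61, whereas its paralogue CADPS2 rose by 1.18 from 4.38, 4.13 and 4.51 to 5.84, 5.04 and 5.70. FURIN, a convertase of the constitutive pathway present in most cells, rose by 0.86. Of the 9 falls of the list, 8 were at least 2-fold, and not all of them are named here. CPE, carboxypeptidase E, averaged 8.29 in H0R and 8.11 in H3R, and PAM, the amidating enzyme, 8.52 and 8.21. SCG5, a chaperone of convertase 2, averaged 5.61 and 5.41. These 3 members with processing roles did not pass the test. With replicates blocked, PAM was called lower (limma adjusted p = 0.0119).

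Promoter windows were read for the granin list because several members moved together. The 8-letter cAMP response element TGACGTCA, which reads the same on both strands, lay in the window of 3 of the 20 members that have one, CHGA, VGF and PCSK1, of which PCSK1 was not tested. Among all 35116 RefSeq promoter windows, 1.85% hold it, and 2.47% of the 18321 windows of tested coding genes do. These shares count windows, whereas 3 of 20 counts genes, and a gene can have several windows. The parts around the match are shown for the 2 tested members, from RefSeq (GRCh38.p14), 5′ to 3′ on the gene's strand, with the match in capitals. The CHGA stretch is chr14:92923055-92923144 on the plus strand and the VGF stretch is chr7:101165600-101165689 on the minus strand.
CHGA: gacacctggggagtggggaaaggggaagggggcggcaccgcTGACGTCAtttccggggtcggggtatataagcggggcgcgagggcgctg
VGF: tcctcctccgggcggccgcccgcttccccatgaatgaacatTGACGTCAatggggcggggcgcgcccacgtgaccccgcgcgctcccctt
The match begins 54 bases before the start of CHGA and 79 before that of VGF. The match is a property of the reference sequence, and binding to it was not measured.

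Part of the machinery that docks and fuses vesicles was lower as well. Of 44 tested genes of vesicle docking and release, 15 fell and 2 rose, with a median of -0.16. That is 38.6% called, against 19.5% of all genes. RAB3C, a small GTPase on secretory vesicles, read 7.13, 7.46 and 7.67 in H0R and 3.73, 3.59 and 3.67 in H3R, close to the dim range (change -3.76, SE 0.14, limma adjusted p = 4.40e-10). SYP, synaptophysin, a vesicle membrane protein used to diagnose neuroendocrine tumours, fell from 8.80, 8.73 and 8.14 to 5.43, 5.57 and 5.63. STXBP5L, tomosyn-2, which binds SNARE proteins, fell from 6.63, 6.76 and 6.91 to 3.53, 3.73 and 3.86. In each of these 3 genes the lowest H0R array was more than 2.5 units above the highest H3R array.

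The following genes of the fusion machinery were chosen after their values were seen. STX1A, syntaxin 1A, a plasma-membrane SNARE, fell from 10.45, 10.50 and 10.23 to 8.30, 8.19 and 7.84. SNAP25, its SNARE partner, fell from 8.11, 8.18 and 8.26 to 6.57, 6.46 and 6.52. The complexins, which clamp the SNARE bundle until calcium arrives, also fell, CPLX1 by 2.64 and CPLX2 by 2.30, and UNC13A, which primes vesicles, fell by 2.65. PCLO and BSN, giant scaffold proteins of the release site, fell by 1.14 and 0.69, and SYN1, which tethers vesicles, fell by 1.03. Against these falls, the calcium sensor SYT1 rose by 0.73 and the GTPase RAB3B rose by 1.13, from 5.48, 4.84 and 4.77 to 6.17, 6.28 and 6.01.

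Transcription factors of neural and neuroendocrine lineage showed a mixed pattern. Of 41 tested, 8 fell and 2 rose, 24.4% called against 19.5% of all genes. Their median was -0.01, and without H0R replicate 2 the number lower was 5. PAX6, a factor of eye, brain and islet development, fell from 6.87, 7.06 and 7.02 to 4.98, 4.88 and 4.93. SOX2, a stem and foregut factor, fell from 8.70, 8.99 and 9.35 to 7.49, 7.29 and 7.26, and POU3F2 fell by 1.2. REST, the repressor that silences neuronal genes in other cells, rose from 8.97, 8.75 and 8.90 to 9.43, 9.36 and 9.28 (change 0.48, SE 0.10, limma adjusted p = 0.00272). INSM1, a driver of neuroendocrine differentiation, read 6.72, 6.68 and 6.87 in H0R and 6.58, 6.95 and 7.01 in H3R, overlapping fully (limma adjusted p = 0.716). NCAM1, the CD56 adhesion molecule used with SYP and CHGA in diagnosis, fell by 1.70. Of 32 neuropeptide and peptide hormone genes 3 fell and 0 rose, and 1 rose with the block or without H0R replicate 3. The plain fit called 9.4% of them, below the 19.5% of all genes. The peptide hormone genes CALCA (4.68 and 4.72) and GRP (5.58 and 5.55), looked up after the values were seen, were low in both groups and did not pass the test. GRPR, the receptor for gastrin-releasing peptide, fell from 9.16, 8.71 and 9.12 to 7.0, 6.98 and 6.97.

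Ion channels fell more often than they rose, and receptors moved both ways. Among potassium channels, 11 of 45 fell and 3 rose, and among sodium, calcium, chloride and TRP channels 11 of 53 fell and 2 rose. Without H3R replicate 2 the latter count of falls was 7. The count of rises there was 0 without H0R replicate 2, and 1 without H0R replicate 1 or 3 or without H3R replicate 1 or 2, and it was 4 with the block. TRPA1, a cation channel that senses irritants, read 7.27, 7.5 and 7.57 in H0R and 4.14, 4.25 and 4.40 in H3R (change -3.18, SE 0.15, limma adjusted p = 3.56e-09). SCN8A, a voltage-gated sodium channel, fell by 2.52 and KCNAB2, an auxiliary subunit of potassium channels, by 2.48. DRD2, a dopamine receptor, fell from 8.37, 8.44 and 8.10 to 5.73, 5.81 and 5.87, and CHRNB2, a nicotinic receptor subunit, fell by 2.71. The regulators of G protein signalling RGS1 and RGS7, which shorten receptor signals, fell by 3.24 and 2.48. Other receptors rose: LPAR1, a receptor for lysophosphatidic acid, went from 7.55, 6.83 and 7.27 to 8.96, 8.83 and 9.05, and GABRA3, a GABA receptor subunit, rose by 1.97 from a low level. CXCR4, a chemokine receptor, rose from 4.22, 4.57 and 4.53 to 5.35, 5.18 and 5.28. Over all 56 G protein-coupled receptors and regulators tested, 9 rose and 7 fell. Of 55 neurotransmitter receptors and synaptic scaffolds, which include CHRNB2 and GABRA3, 4 fell and 3 rose, 12.7% against 19.5% of all genes, with a median of -0.01. The rises of that list numbered 1 without H3R replicate 1 or 2 and 5 with the block.

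**Figure D2:**
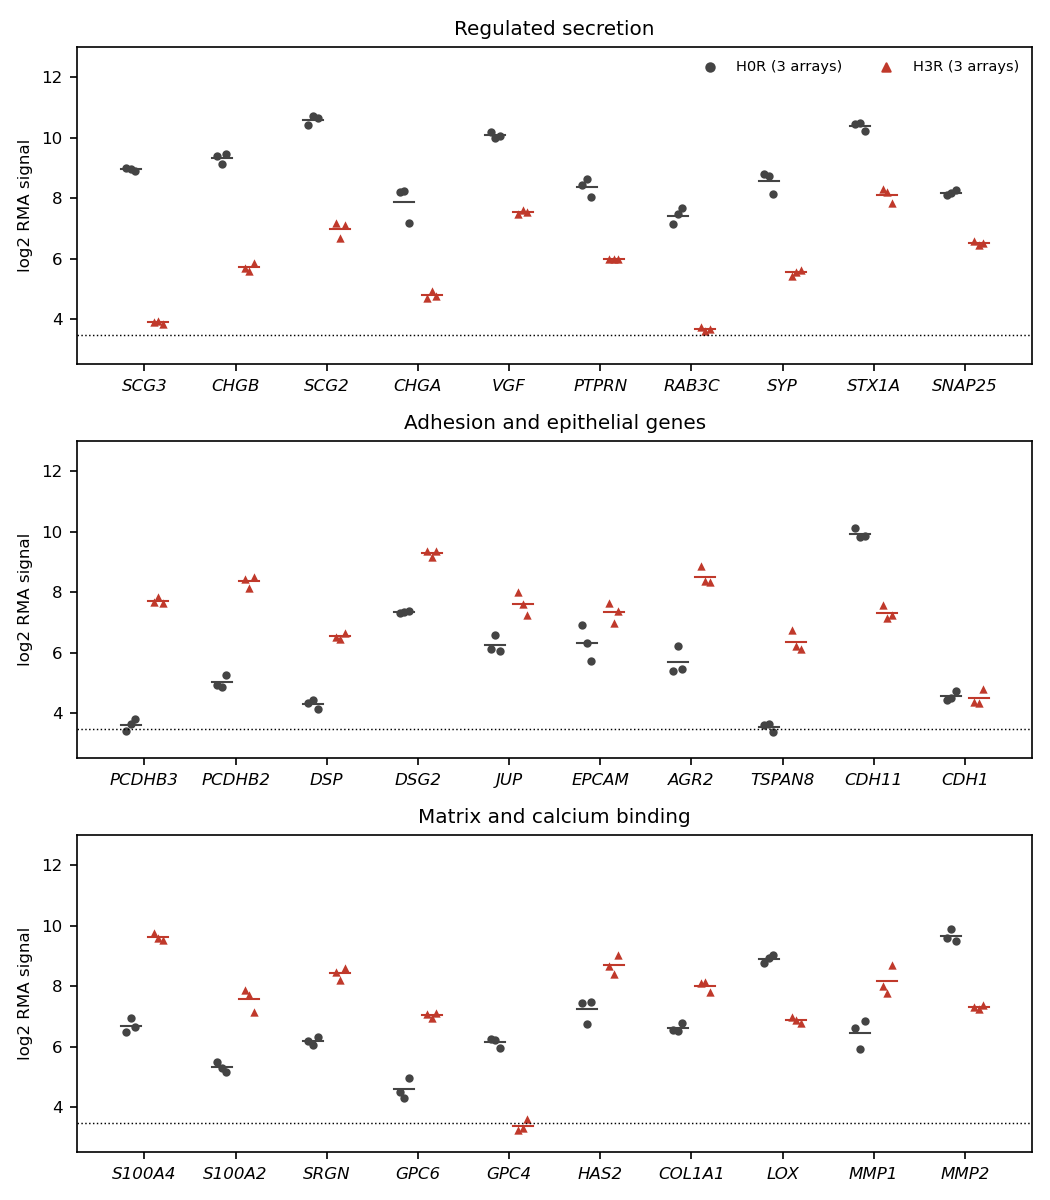
Log2 RMA signal of 30 genes on each array, H0R as grey circles and H3R as red triangles, with a bar at each group mean and a dotted line at the mean 20th percentile of the arrays (3.47). In the top panel all 10 secretory genes are lower in H3R, in the middle panel all but CDH11 and CDH1 are higher, and in the bottom panel GPC4, LOX and MMP2 are lower while the other 7 are higher.

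Adhesion genes contributed the largest rises. PCDHB3, a clustered protocadherin that mediates cell recognition, was near the dim limit in H0R at 3.42, 3.63 and 3.79. It reached 7.69, 7.83 and 7.65 in H3R (change 4.11, SE 0.16, limma adjusted p = 7.43e-10). PCDHB2, its neighbour in the cluster, rose from 4.94, 4.86 and 5.26 to 8.43, 8.13 and 8.51. The rises were 17.2-fold and 10.1-fold, with no overlap between groups. PCDHB13 was below the dim limit on the H0R arrays and rose at least 2.31-fold, a bound from that limit, and PCDHB14 rose by 1.32. Genes of this cluster are close copies of each other, so probes may share signal between them. Over 28 tested protocadherins, 6 rose and 4 fell, PCDH7 by 1.39 and the giant cadherin FAT4 by 1.28.

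Several desmosome genes rose in the selected cells. Of 13 tested, 5 rose, with a median of 0.25 against 0.02 over all genes. With replicates blocked, 6 were higher and 1 lower, and 1 lower call was also made without A0R replicate 2 or 3. DSP, desmoplakin, the link to keratin, read 4.33, 4.44 and 4.14 in H0R and 6.52, 6.46 and 6.64 in H3R (change 2.24, SE 0.18, limma adjusted p = 8.66e-07). DSG2, a desmosomal cadherin, rose from 7.32, 7.33 and 7.36 to 9.36, 9.15 and 9.36. JUP, plakoglobin, rose from 6.10, 6.59 and 6.04 to 8.0, 7.61 and 7.23, and PKP2, plakophilin 2, rose by 0.82. The fifth, DSC2, the other desmosomal cadherin of simple epithelia, rose by 0.56 and was chosen after its value was seen. Its call was lost without H0R replicate 1, H3R replicate 1 or H3R replicate 3 (limma adjusted p up to 0.0996).

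Tight junction genes split, with 4 of 32 tested higher and 4 lower. AMOTL1, a scaffold at these junctions, fell from 7.19, 7.36 and 7.37 to 5.60, 5.71 and 5.90. CLDN10, a claudin that forms ion pores, and CXADR, an adhesion protein and virus receptor, fell by 1.27 and 1.16, and these were the 3 changes of 2-fold or more. MARVELD2, tricellulin, which seals the corners between cells, rose by 0.90.

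Epithelial genes outside junctions rose in 4 of 29 tested members and fell in 0. That is 13.8% called, all higher, against 19.5% of all genes called and 8.57% higher. AGR2, a disulfide isomerase of mucus-secreting cells, rose from 5.39, 6.20 and 5.45 to 8.85, 8.36 and 8.33. TSPAN8, a tetraspanin of gut and airway epithelium, was near the dim limit in H0R (3.62, 3.64 and 3.37) and read 6.76, 6.21 and 6.10 in H3R. SPINT2, an inhibitor of membrane serine proteases, rose by 1.68. EPCAM, an epithelial adhesion molecule, varied most within groups, at 6.91, 6.32 and 5.73 in H0R and 7.64, 7.0 and 7.39 in H3R, and its rise of 1.02 (SE 0.23) passed with a limma adjusted p of 0.00588. In the list of lung and endoderm lineage, which also holds AGR2, 6 of 38 rose. Among them were TFF1, a mucosal peptide, by 1.75, and FOXA2, a foregut factor, by 0.65. Without H0R replicate 3, 1 member of that list was called lower. The main fit called 15.8% of it, all higher, where 19.5% of all genes were called and 8.57% were higher. CDH1 stayed at 4.43, 4.50 and 4.73 against 4.38, 4.34 and 4.79, with overlapping arrays (limma adjusted p = 0.90).

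Of 21 classical cadherins and catenins, 4 rose, 2 fell and 15 did not pass the test. CDH11, a cadherin of mesenchymal cells, fell from 10.12, 9.81 and 9.86 to 7.56, 7.16 and 7.26. CDH19, CDH12 and CDH8, type II cadherins of neural crest and brain, rose by 1.55, 1.42 and 1.33. The N-cadherin gene CDH2 was low at 4.81 and 4.63 and did not pass the test. Among 38 immunoglobulin-type adhesion molecules 9 fell and 4 rose. NEGR1, a neuronal adhesion protein, fell by 1.90, and CD96, a receptor for nectin-like proteins, rose from 5.50, 5.61 and 5.42 to 8.08, 7.62 and 8.18. The tetraspanin CD9, a membrane organiser, rose from 8.55, 8.70 and 8.14 to 10.32, 10.23 and 10.13.

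S100 proteins and annexins, which bind calcium and act at membranes and the cytoskeleton, rose in 8 of 28 tested members and fell in 2, with a median of 0.19. The 2 falls were not both called without H0R replicate 1 or H3R replicate 3 (1 each), and neither was called without H0R replicate 2 or H3R replicate 2. S100A4, a binding partner of non-muscle myosin, read 6.48, 6.95 and 6.65 in H0R and 9.76, 9.59 and 9.53 in H3R (change 2.94, SE 0.14, a rise of 7.65-fold, limma adjusted p = 3.90e-09). S100A2, a relative found in basal epithelium, rose from 5.49, 5.29 and 5.17 to 7.86, 7.70 and 7.16. ANXA3, annexin A3, rose by 2.02. All 3 genes had separate groups, and replicate 3 of H3R gave the lowest S100A2 and the highest ANXA3 value.

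Extracellular matrix genes changed both ways. Of 39 proteoglycan and heparan sulfate genes, 7 rose and 9 fell. The glypicans, heparan sulfate carriers on a lipid anchor, moved apart: GPC6 rose from 4.51, 4.30 and 4.97 to 7.09, 6.95 and 7.12, and GPC4 fell from 6.24, 6.22 and 5.97 to 3.24, 3.31 and 3.61, near the dim limit. SRGN, serglycin, an intracellular proteoglycan of storage granules, rose from 6.19, 6.05 and 6.32 to 8.48, 8.21 and 8.61. HAS2, which makes hyaluronan, rose by 1.46, and SDC3, a syndecan of neural tissue, fell by 1.56. Of 36 matrix proteases and inhibitors, 7 rose and 11 fell. The collagenase MMP1 rose from 6.61, 5.91 and 6.85 to 8.0, 7.78 and 8.71, while the gelatinase MMP2 fell from 9.61, 9.90 and 9.48 to 7.32, 7.24 and 7.39. TIMP1, an inhibitor of these enzymes, rose by 1.02 from a high level.

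Among collagens and their enzymes, 7 of 42 rose and 8 fell. The falls numbered 3 without H0R replicate 1, H0R replicate 2 or H3R replicate 3, and 5 without H3R replicate 2. COL1A1, the main chain of type I collagen, rose from 6.54, 6.53 and 6.77 to 8.11, 8.13 and 7.81, and COL3A1 rose by 1.29. LOX, which cross-links collagen, fell from 8.76, 8.93 and 9.04 to 6.97, 6.88 and 6.79, and COL6A2 fell by 1.12. The largest rise of the list was COLEC10, a lectin with a collagen-like stem, from 5.46, 5.14 and 5.45 to 8.36, 7.72 and 8.19. COL1A1 and COL3A1 also stand in the list of fibroblast markers, of which 4 of 11 rose: LUM, lumican, by 1.77, COL1A1 by 1.41, COL3A1 by 1.29 and PDGFRA by 0.71. The mean of that list was 5.25 to 5.53 on H0R arrays and 5.82 to 5.98 on H3R arrays, and no marker of it was below the dim limit on all 6 arrays. LYZ (1.67) and CD68 (0.65) rose among 18 leukocyte markers, whose list mean was 4.76 to 4.82 and 4.86 to 5.05. These 11.1% called, all higher, were near the 8.57% of all genes higher. FLT1 fell among 13 endothelial markers, at least 1.21-fold as it was dim in H3R. None of 9 erythroid and platelet markers passed the limma test, 1 had an unadjusted p below 0.05, and PPBP was dim on all 6 arrays. A contribution of other cells to the matrix genes was not tested, and in such bulk RNA fewer cells of a type and less RNA per cell cannot be told apart.

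Mesenchymal genes as a list split, with 13 of 40 lower and 7 higher and a median of -0.01. Without H0R replicate 1 or H0R replicate 2 the lower count was 8. TNC, tenascin C, fell from 9.27, 9.17 and 9.02 to 7.77, 7.78 and 7.87. SNAI2, a repressor of epithelial genes also called Slug, rose by 1.17, and its H0R arrays were uneven at 8.37, 7.71 and 8.35 against 9.27, 9.35 and 9.30. VIM and FN1, fibronectin, did not pass the test.

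Cell signalling genes with large changes included several ligand and receptor partners. MFNG, a sugar transferase that tunes Notch receptors, fell from 9.26, 9.12 and 8.60 to 5.26, 5.46 and 5.33 (change -3.64, SE 0.15, limma adjusted p = 7.50e-10). DNER, a Notch-binding membrane protein of neurons, fell by 1.96, and JAG1, a Notch ligand, rose from 10.39, 10.32 and 10.32 to 11.46, 11.39 and 11.54. Of 40 Notch genes 7 fell and 3 rose. The rises numbered 1 without H0R replicate 1 or 2 and 6 with replicates blocked. In Wnt signalling 6 of 63 rose and 7 fell, 20.6% called, which is near the 19.5% of all genes: the receptor FZD8 rose by 1.62, the ligand WNT5A by 1.09, and the nuclear factor LEF1 fell by 1.52.

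KIT, the stem cell factor receptor, read 6.96, 6.10 and 6.65 in H0R and 3.68, 3.37 and 3.34 in H3R, near the dim limit on all 3 H3R arrays. Its ligand KITLG rose by 0.57. FGF2 fell by 0.98 and SPRY1, a feedback inhibitor of growth factor receptors, by 1.04. Over 67 receptor tyrosine kinases and ligands, 9 fell and 5 rose, 20.9% called and again near the 19.5% of all genes. In TGF-beta and BMP signalling 17 of 62 fell and 7 rose. FSTL5, a secreted follistatin-like protein, fell from 7.17, 6.73 and 6.72 into the dim range at 3.36, 3.19 and 3.18, a fall of at least 10.5-fold. FST, follistatin, which traps activin, fell by 1.21, the BMP target ID2 fell by 1.30, and the ligand BMP2 rose from 8.30, 7.94 and 7.86 to 9.58, 9.10 and 9.37.

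Semaphorin pathway genes fell more often than they rose. Of 30 semaphorins, plexins and neuropilins 11 fell and 2 rose, with a median of -0.16. Only 1 rise was called without H0R replicate 1, H3R replicate 1 or H3R replicate 2. NRP2, a co-receptor for semaphorins and VEGF, fell from 8.47, 8.48 and 8.22 to 7.05, 7.22 and 6.92, whereas NRP1 rose by 0.67. SEMA6A fell by 1.49 and its receptor family member PLXNA2 by 0.93. The receptor EPHB1, which reads ephrin-B ligands, fell by 1.85. DIAPH2, a formin that nucleates actin filaments, read 6.77, 6.61 and 6.70 in H0R and 3.26, 3.35 and 3.21 in H3R. As H3R was in the dim range, the fall is at least 9.22-fold. RHOU, a GTPase that drives protrusions, fell by 1.57, and LIMA1, which bundles actin, rose by 1.55. Of 36 genes of the Hippo pathway and YAP targets 8 fell and 5 rose, and without H3R replicate 2 the falls numbered 5. TGFB2, a growth factor of the TGF-beta family, fell from 9.64, 9.53 and 9.59 to 8.49, 8.42 and 8.75, and WWTR1, the co-activator TAZ, fell by 0.78. ANKRD1 rose by 1.51 and F3, tissue factor, the trigger of coagulation, rose from 6.29, 6.29 and 6.14 to 8.08, 7.73 and 7.57.

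Many genes of cholesterol synthesis and uptake were lower. Of 22 tested, 10 fell and 2 rose, with a median of -0.32, the lowest of the 61 lists. The falls numbered 6 without H0R replicate 1 and 5 without H0R replicate 2. Only 1 rise was called without H0R replicate 1 or 3, without H3R replicate 1 or 2, or after median centring of the arrays. INSIG1, a sterol-regulated inhibitor of the pathway, fell from 8.38, 8.58 and 8.28 to 6.97, 7.09 and 6.97. SQLE, squalene epoxidase, fell from 10.21, 10.31 and 10.27 to 9.34, 9.29 and 9.54, MSMO1, a sterol oxidase, fell by 0.77, and NSDHL, a later enzyme, rose by 0.85. The sterol regulatory element spelled TCACNCCAC, searched on both strands, lay in the promoter window of 1 of 21 members, SREBF2, against 1.13% of the 35116 windows. That stretch is chr22:41832931-41833021 on the plus strand (RefSeq, GRCh38.p14), shown 5′ to 3′ with the match in capitals because SREBF2 encodes the regulator of this pathway. SREBF2 itself, looked up after the values were seen, read 8.51, 8.89 and 7.99 in H0R and 7.93, 7.76 and 7.41 in H3R. It was called lower (limma adjusted p = 0.0313), but not without H0R replicate 1, H0R replicate 2, H3R replicate 2 or H3R replicate 3 (up to 0.160).
SREBF2: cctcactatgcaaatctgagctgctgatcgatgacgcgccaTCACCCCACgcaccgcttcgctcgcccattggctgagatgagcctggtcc

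Redox and drug-handling genes fell in 14 of 55 members of the NRF2 and xenobiotic list and rose in 3, and 9 were lower without H0R replicate 2 or without H3R replicate 2. ABCC2, an export pump, fell from 7.73, 8.15 and 7.45 to 5.90, 5.61 and 5.47. NQO1, a quinone reductase, fell by 1.26, SLC7A11, the cystine importer, by 1.51, and CYP1B1, a P450 enzyme, by 1.90. UGT8, which makes galactosylceramide, fell from 8.35, 8.21 and 8.43 to 5.31, 4.87 and 4.80 (change -3.34, SE 0.16, limma adjusted p = 3.62e-09). Over 59 genes of fatty acid and lipid handling 11 fell and 5 rose. Of 69 mucins, glycosyltransferases and sulfotransferases, 14 fell and 2 rose, or 4 rose with the block. DIO2, which activates thyroid hormone, rose from 4.22, 4.21 and 4.61 to 7.22, 7.25 and 7.56 (change 3.00, SE 0.19, limma adjusted p = 6.71e-08).

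Interferon response genes fell in 12 of 46 members and rose in 1, with a median of -0.18. IFI16, a DNA sensor, fell from 9.02, 9.02 and 9.19 to 7.79, 7.39 and 7.83, and IFI44L fell from 7.09, 6.80 and 6.99 to 5.42, 5.46 and 5.81. IFITM1, a membrane protein that blocks virus entry, was uneven in H0R (6.69, 7.41 and 6.0) and fell by 1.28 to 5.86, 5.32 and 5.07. The single rise was IFIT5, an RNA-binding member, from 5.94, 5.63 and 5.91 to 7.05, 6.76 and 7.11. Of 27 antigen presentation genes 4 fell, or 9 with the block, among them PSMB8, a subunit of the immunoproteasome, by 1.33 and TAP1, the peptide transporter, by 0.70. The 3 rises of that list were 1 without H0R replicate 3. Among 52 chemokine and cytokine genes 4 fell and 5 rose, or 8 with the block. The plain fit called 17.3% of them, near the 19.5% of all genes. CXCL8, the neutrophil attractant IL-8, fell from 7.07, 6.39 and 6.86 to 5.02, 5.23 and 5.44, and PTGS2, cyclooxygenase 2, fell by 1.46. IL18, a cytokine precursor, rose from a dim 3.06, 3.48 and 3.15 to 5.14, 5.12 and 4.07, replicate 3 being the lowest of H3R.

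Genes of positional and germline identity changed in both directions. HOXD10 and HOXD11, adjacent genes of distal body patterning, fell by 2.15 and 1.47, and HOXB2, of hindbrain patterning, rose from 4.68, 4.45 and 4.65 to 6.79, 6.30 and 6.57. Of 27 HOX genes 4 fell and 3 rose, or 5 with the block. DDX53, a cancer-testis helicase, fell from 6.88, 6.29 and 6.86 to 3.49, 3.75 and 3.63. MAGEC2 and PRAME, other cancer-testis antigens, rose by 1.94 and 1.35, and LIN28B, which blocks maturation of let-7 RNA, rose from 6.87, 6.51 and 6.70 to 8.16, 8.16 and 8.22. Of the 33 cancer-testis and germline genes tested, 4 rose and 1 fell, against 7 and 3 with the block. The plain fit called 15.15% of them, below the 19.5% of all genes. A second fall was called without A0R replicate 3, H0R replicate 1 or H3R replicate 1.

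Most called chromatin and cell cycle genes changed by less than 2-fold. Of 51 genes of DNA methylation and Polycomb machinery 12 fell and 2 rose. The falls numbered 6 without H0R replicate 1 and 7 without H3R replicate 1 or 2, and 1 rise was called without H0R replicate 2 or H3R replicate 1. TET2, which oxidises methylcytosine, fell by 0.83. DNMT1, the maintenance methyltransferase, averaged 9.83 and 9.78 and did not pass the test. EZH2, the Polycomb methyltransferase, changed by -0.28 (limma adjusted p = 0.141, or 0.024 with the block). Of 54 histone genes 4 fell and 1 rose, 9.26% called against 19.5% of all genes. The rises numbered 3 with the block, 4 without H0R replicate 2, and 2 without A0R replicate 1, A0R replicate 3 or H3R replicate 3. H2BC12, a histone H2B gene, fell by 2.19 and MACROH2A2, a variant of silent chromatin, rose by 1.57. In the cell cycle list 16 of 73 fell and 5 rose, or 11 rose with the block. Without H3R replicate 2, 9 fell, and 3 rose without H0R replicate 1 and 2 without H0R replicate 2 or H3R replicate 1. MKI67, the proliferation marker Ki-67, rose from 8.29, 8.45 and 8.41 to 9.33, 9.25 and 9.14, and CDKN2B, an inhibitor of cyclin-dependent kinases, fell by 1.11. MYC changed by 0.30, which did not pass (limma adjusted p = 0.155).

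**Figure D3:**
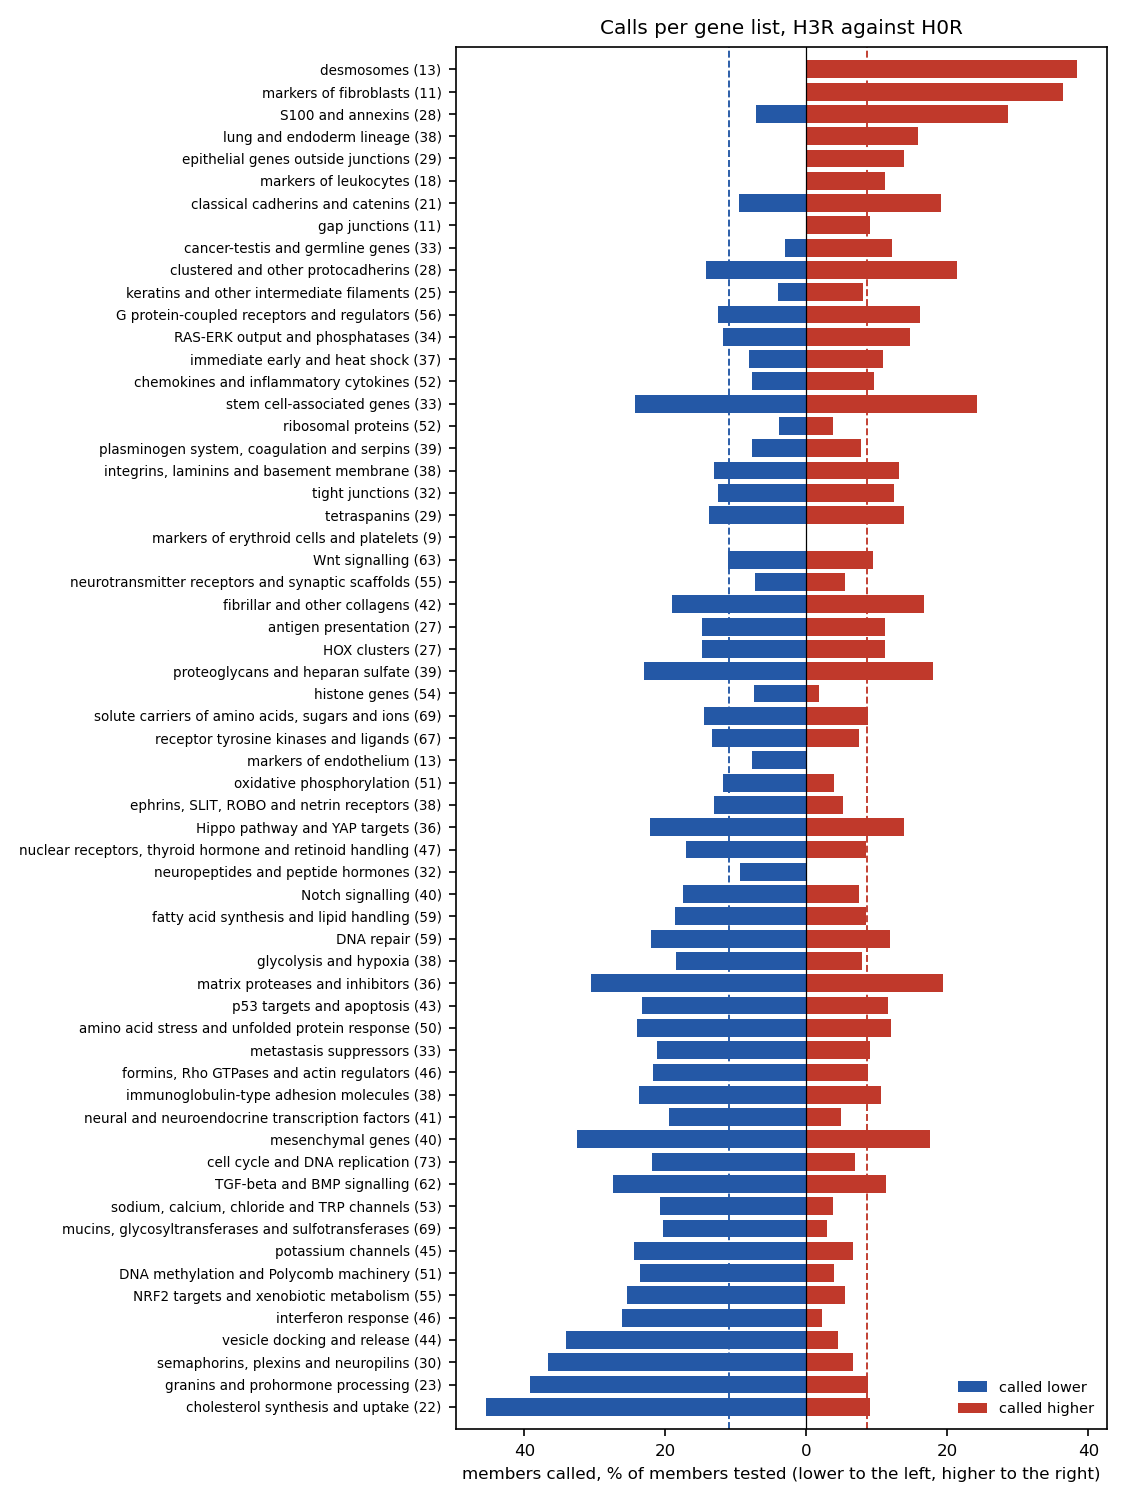
Share of tested members called lower (blue, to the left) and higher (red, to the right) in H3R for each of the 61 gene lists, with the number tested in brackets; dashed lines mark the shares over all genes, 10.9% lower and 8.57% higher. The lists are sorted by the share higher minus the share lower, from desmosomes at the top to cholesterol synthesis and uptake at the bottom.

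The called genes were unevenly spread over the chromosomes, which were compared after the values were seen. Of 15676 coding genes with a place, 8.93% were higher and 11.6% lower. On chromosome 7, 25.1% were lower and 3.17% higher, and on chromosomes 13, 2 and 3 the share lower was 23.9%, 22.3% and 21.3%. Chromosome 15 had 20.5% higher, and chromosomes 12, 14 and 10 had 19%, 17.5% and 17.2% higher. The median change of all tested coding genes was -0.14 on chromosome 7 and 0.15 on chromosome 15. Taken pair by pair with the same replicate number, the chromosome 7 median was -0.15, -0.13 and -0.17 and that of chromosome 15 was 0.17, 0.15 and 0.14. Without H3R replicate 1, 63 rather than 98 genes of chromosome 15 were higher.

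**Figure D4:**
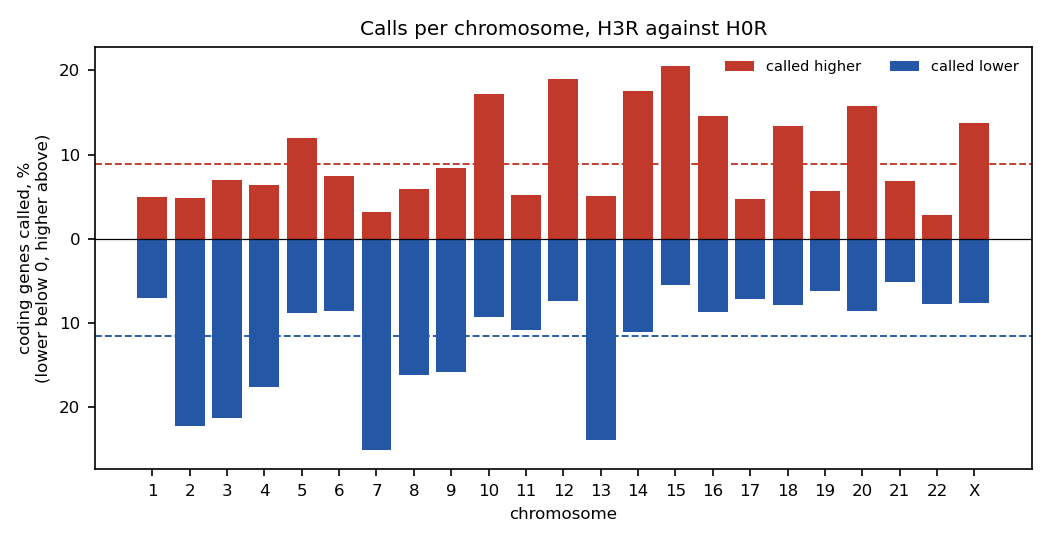
Percentage of tested coding genes called higher (red, above 0) and lower (blue, below 0) in H3R on each chromosome; dashed lines mark the percentages over all 15676 coding genes, 8.93% and 11.6%. Chromosomes 2, 3, 7 and 13 stand out below the line and chromosomes 10, 12, 14 and 15 above it.

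Some stretches within chromosomes held many genes called in the same direction. All windows of 30 neighbouring tested coding genes were read, and those below are among the windows with the most calls in a direction. Runs were picked as unbroken calls in the same direction. The counts are raised by this choice, and clustering was not tested. Over all coding genes, 8.93% were higher and 11.6% lower. In the 30 tested genes of chromosome 20 from ANKEF1 to RIN2, 21 were higher and 2 lower, with a median of 0.81. These include JAG1, whose rise is given above, and the lower pair includes SNAP25. In the 30 genes of chromosome 4 from ANK2 to FAT4, 23 were lower and 1 higher (median -0.53), including UGT8, FGF2 and SPRY1. On chromosome 7, 20 of the 30 genes from GSAP to CDK14 were lower, and the neighbours GNAI1, SEMA3C, CACNA2D1, PCLO, SEMA3E, SEMA3A and SEMA3D formed an unbroken run of 7 with a median of -0.79. SEMA3A, with the smallest change of the run at -0.35, was not called without H0R replicate 1 or 3 or H3R replicate 2 or 3, where its limma adjusted p reached 0.082. On chromosome 13, 17 of the 30 genes from GPC6 to FGF14 were lower, GPC6 itself being the gene that rose. A run of 9 genes on the X chromosome from RPL10 to FAM3A was higher (median 0.64), and so was a run of 6 on chromosome 6 that holds DSP. PLXNA3 in the first and RREB1 in the second were not called without H0R replicate 1, H3R replicate 1 or H3R replicate 2, nor was SNRNP48 in the second without H3R replicate 3. Several semaphorins, UGT8, JAG1 and DSP thus changed together with their neighbours on the chromosome.

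**Figure D5:**
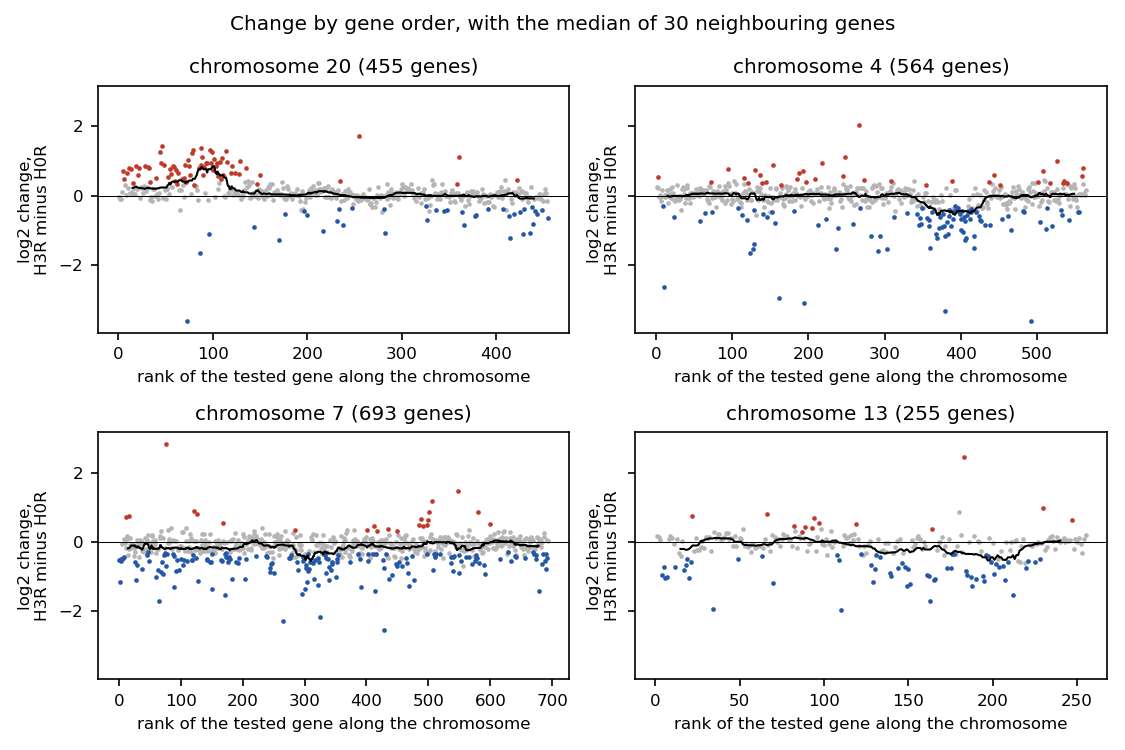
Log2 change of each tested coding gene (H3R minus H0R) against its rank along chromosomes 20, 4, 7 and 13, red for called higher, blue for called lower and grey for not called, with a black line for the median of 30 neighbouring genes. The line rises to 0.81 in the first part of chromosome 20 and falls to about -0.5 in stretches of chromosomes 4, 7 and 13. These stretches were picked for their many calls in the same direction.

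Small RNA genes were looked at after the values were seen. Small nucleolar RNAs, which guide modification of ribosomal RNA, had a median change of 0.30 over 136 genes, and 19 rose. The median over them on each array was 6.39, 6.55 and 6.41 in H0R and 6.98, 6.81 and 6.63 in H3R, so the groups did not overlap and replicate 3 of H3R was nearest to H0R. With replicates blocked 39 rose and 1 fell, where 12.9% of all genes rose and 15.1% fell. Without the arrays numbered 3 of every group 48 rose, against 1404 of all 16939 genes. The lowest count on leaving out an array was 9, and it was under 13 without H0R replicate 1, H0R replicate 2, H3R replicate 1 or H3R replicate 2. SNORA71A, a guide of the H/ACA type, rose from 7.72, 7.96 and 7.53 to 9.30, 9.30 and 8.77 (change 1.39, SE 0.20, limma adjusted p = 0.00021). SNORD57, of the C/D type, rose by 1.14. Both genes lie on chromosome 20, as does SNORA71C, the other small nucleolar RNA that rose at least 2-fold.

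MicroRNA genes differed little. Of 106 tested, 4 fell (3.77%) and 0 rose, against 10.9% of all genes lower and 8.57% higher, with a median of 0.02. MIR15A read 6.14, 6.38 and 6.23 in H0R and 5.51, 5.77 and 5.29 in H3R, and MIR125B1 read 4.71, 4.80 and 4.38 against 4.13, 3.99 and 4.0. These falls, by 0.73 and 0.59 on the log2 scale, passed with a limma adjusted p of 0.00142 and 0.00584, and no array overlapped. MIRLET7I fell by 0.43 and MIR106B by 0.41, and each lost its call without several arrays: MIRLET7I without A3R replicates 1 or 2, any H0R array, or H3R replicates 1 or 2 (limma adjusted p up to 0.173), and MIR106B without A0R replicate 2, H0R replicates 2 or 3, or any H3R array (up to 0.147). The mature sequences that these 4 genes give from their 5′ arm are shown to identify them, from RefSeq (GRCh38.p14), 5′ to 3′, with the seed, bases 2 to 8, in capitals. No seed is shared between them. The array does not separate the mature form from its precursor.
hsa-miR-15a-5p: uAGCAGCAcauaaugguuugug
hsa-miR-125b-5p: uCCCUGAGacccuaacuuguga
hsa-let-7i-5p: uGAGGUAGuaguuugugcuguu
hsa-miR-106b-5p: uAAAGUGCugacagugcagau
They lie at chr13:50049167-50049188 (minus strand), chr11:122099809-122099830 (minus), chr12:62603691-62603712 (plus) and chr7:100094043-100094063 (minus), in that order.

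Other leading genes were not described above. NRK, a kinase of the placenta and embryo, was near the dim limit in H0R (3.25, 3.51 and 3.6) and read 5.94, 5.71 and 5.99 in H3R. OTULINL, an inactive relative of the deubiquitinase OTULIN, rose by 2.27, and RAP1GAP2, which switches off the GTPase RAP1, rose by 2.25. TMEM145, a membrane protein, fell from 9.81, 9.93 and 9.62 to 6.46, 6.64 and 6.23. NSG2, an endosomal protein of neurons counted in the vesicle list, fell from 6.82, 7.02 and 8.38 to 4.21, 4.22 and 4.02. Its H0R replicate 3 was the highest value by more than 1 unit, and the change of -3.25 had the largest standard error of the 15 leading falls (0.28).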

How the data were processed

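RNA of 12 arrays was analysed, 3 per group. Per the submitters' processing notes, the deposited log2 values were made by the authors with RMA in Affymetrix Expression Console. Software versions: not given in the sources used here. Scanner files were not analysed here. RMA subtracts background and makes the arrays' distributions equal, so a shift of all mRNA would be removed and changes of dim genes are compressed. The number of arrays limits the precision.

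Of 33297 probe sets, 19460 had 1 gene symbol in the platform annotation, 1754 had several and 12083 had none. Probe sets had to exceed the 20th percentile of the array on 3 or more of the 12. The probe set with the highest mean then stood for its gene, which gave 16939 genes. Of 693 genes with several probe sets, 0 had sets called in opposite directions. Symbols, chromosomes and gene order came from RefSeq (GRCh38.p14), matched on the Entrez identifier for 19429 probe sets. The linear model had a mean for each of the 4 groups and used all 12 arrays, leaving 8 residual degrees of freedom. It was run in R 4.3.3 by lmFit and eBayes of limma 3.58.1, with two-sided p-values adjusted over all genes by Benjamini-Hochberg. The fit was tested on simulated data. Where every array of 1 group lay below its 20th percentile, the fold is given as at least the other group's mean over that limit. Tables were made with pandas 2.3.3 under Python 3.11.15 and figures with matplotlib 3.10.9.

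The groups share replicate numbers. Deviations from the group means had correlations of 0.16 to 0.549 for the 18 pairs of equal number and of -0.417 to 0.205 for the 36 others. Centring on a mean of 3 arrays by itself pushes the values for unequal numbers below 0. Between H0R and H3R, arrays numbered 3 correlated at 0.549, and those numbered 1 and 2 at 0.237 and 0.253. H0R replicate 2 correlated at 0.205 with H3R replicate 1, so replicates 1 and 2 were hardly told apart. That the numbers pair the samples is an assumption, since the labels do not say so. A fit blocked on the numbers stands beside the plain fit.

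Genes were named by rule: the 15 largest called rises and falls with no overlap of arrays, up to 4 called members per list and direction, members of runs of neighbouring genes, and a short set of fixed genes. The genes, the 61 lists and the rule were chosen with earlier results of these data known. Lists are described by counts, with no set test. Alternatives changed the filter, the choice of probe set, the scaling, the fit, the threshold and the arrays.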

Additional observations from a re-analysis of the deposited data

Results flagged for a closer look

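The 10 largest falls and 10 largest rises in HTB56 were set against the change of the same genes in A549, the other line of the series, which also went through 3 rounds of selection. Each of the 20 drew attention because its change differed between the lines in a limma test of the difference itself, adjusted over all genes, where 11.8% of the 16939 genes passed. The genes were chosen for their size in HTB56, so a difference in this direction is partly set by that choice. The differences, HTB56 change minus A549 change on the log2 scale, were -5.05 for SCG3, -3.51 for RAB3C, -3.69 for MFNG, -3.63 for FSTL5 and -3.95 for CHGB. They were -3.30 for SCG2, -3.58 for DIAPH2, -3.35 for TMEM145, -2.95 for UGT8 and -3.49 for NSG2. FSTL5 and DIAPH2 were dim on the H3R arrays, so their fitted differences are not measured sizes, and their falls in HTB56 are known only as at least 10.5-fold and 9.22-fold.

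Among the rises the differences were 2.31 for NRK, 2.53 for CD96, 3.05 for GPC6, 3.00 for COLEC10 and 1.99 for TSPAN8. They were 2.25 for AGR2, 2.84 for S100A4, 3.22 for DIO2, 2.98 for PCDHB2 and 4.29 for PCDHB3. The limma adjusted p of the difference ranged up to 0.000221 (AGR2). Within A549 alone, TSPAN8 was the member of the 20 that passed, with a rise of 0.83 (limma adjusted p = 0.025). Levels in A549 differed between these genes: AGR2 and S100A4 averaged 10.3 and 10.5 in the unselected A549 cells, while SCG3 and FSTL5 averaged 3.30 and 2.93, within the dim range, where a fall could not be measured.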

How the results depend on the processing

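None of the 497 named genes called reversed direction under any alternative in which it was tested. Called genes numbered 1189 (466 higher, 723 lower) in a treat test against a fold of 1.2, which asks for a larger change, and 2039 (855 and 1184) at an adjusted p below 0.01. Genes higher numbered 2186 with the replicate block and 2181 with the replicate block on the 6 HTB56 arrays, against 1452. Called genes that stand in any of the lists, each counted once, fell from 592 to 303 under treat. Leaving out each array in turn gave 2491 to 3432 genes called, 1047 to 1510 higher and 1374 to 1922 lower. These refits gave 489 to 528 at 2-fold or more, 474 to 605 list genes called and 20 of 20 differences between lines. Without the arrays numbered 3 in every group, an alternative chosen after seeing the data, 3071 genes were called. Array weights gave 4655. Median centring gave 1111 higher and 1934 lower and cyclic loess 1382 and 2047. Over all genes, 1187 calls were lost in none of the 25 refits in which the gene was tested (the stricter threshold is not a refit). Of the 497 named genes called, 497 kept their call with the block, 468 after median centring and 317 under treat. The cause of these moves was not tested. Probe-level background correction was not varied. Low signal limits the genes read in the dim range, and those dim on every array of a group have folds given as bounds.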
